A study of Homo sapiens with 6 samples.

Results

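Cadherins and protocadherins were described in VCaP cells, an established human prostate cancer line, after knockdown of NEDD9, a scaffold protein of focal adhesions. The members were the genes of the count table whose symbol is CDH followed by a number or begins with PCDH, without symbols ending in P and without PCDH11Y. The rule matched 94 of 58735 genes, among them 4 antisense genes and 2 pseudogenes by GENCODE type. Of these, 39 had at least 60 counts summed over the 6 libraries and are reported: 9 CDH genes, PCDH1, and 29 genes of the clustered families (4 PCDHA, 14 PCDHB and 11 PCDHG). The comparison had 3 libraries of cells with a short hairpin RNA against NEDD9 (shNEDD9) and 3 with a non-targeting control hairpin (shNTC). Both groups were VCaP cells infected with their hairpin and held in DMEM with 10% foetal bovine serum, and the series calls the libraries biological triplicates. A single cell line was used, and the labels name 1 hairpin condition against NEDD9.

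Classical cadherins are transmembrane proteins that bind like cadherins on neighbouring cells through calcium-dependent outer domains. Their tails bind catenins, which link the junction to actin. E-cadherin (CDH1) is typical of epithelial cells and N-cadherin (CDH2) of neural and mesenchymal cells, and gain of N-cadherin is a known feature of some advanced prostate cancers. The clustered protocadherins lie side by side on chromosome 5. In the PCDHA and PCDHG clusters each variable first exon has its own promoter and is spliced to shared constant exons, whereas PCDHB genes consist of a single coding exon.

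The libraries held 3217276 to 9902002 counts. A count of 3 equals 0.303 to 0.932 CPM (read counts scaled to library size), a floor that covers counting error only. NEDD9 was 355.7 ± 14.3 CPM (SD, n = 3) in shNTC and 137.0 ± 1.03 CPM (SD, n = 3) in shNEDD9, which was 2.62-fold lower. All 10 markers of VCaP and prostate luminal cells were tested, and their summed level was 5753 to 5810 CPM in shNTC and 6331 to 6371 CPM in shNEDD9. Of the fibroblast markers 2 of 10 passed the count filter, with sums of 27.4 to 35.5 CPM in shNTC and 47.8 to 56.0 CPM in shNEDD9, and FAP and THY1 were at 0 counts. LUM went from 19.2 to 45.2 CPM, whereas COL1A1 was called lower, from 7.23 to 4.63 CPM. Of the leukocyte markers 2 of 8 passed, and CD3E, CD68 and TYROBP were at 0. Their sums were 18.4 to 25.8 CPM in shNTC and 5.71 to 6.66 CPM in shNEDD9. LYZ was called lower, at 15.2 to 20.1 CPM in shNTC and 1.34 to 1.65 CPM in shNEDD9. CD14 was not called, at 3.09 to 4.71 CPM in shNTC and 4.36 to 5.14 CPM in shNEDD9, so the lower sum reflects LYZ. Endothelial sums were 10.6 to 12.1 CPM and 9.58 to 11.1 CPM, and neuronal and neuroendocrine sums 406.1 to 446.8 CPM and 414.7 to 430.8 CPM. The latter sums hide opposite changes. Of 6 tested neuronal and neuroendocrine markers, 4 were called higher (NCAM1, MAP2, ENO2 and CHGA). CHGB was called lower, from 198.2 CPM in shNTC to 110.0 CPM in shNEDD9. The part of these markers in the results below was not tested. In such bulk libraries, fewer cells of a type and less RNA per cell cannot be told apart.

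A gene was called when edgeR's quasi-likelihood test gave a Benjamini-Hochberg adjusted p under 0.05 over all 13958 genes tested. By that rule 31 of the 39 members fell in shNEDD9, 3 rose and 5 were not called. Among all genes tested, 35.9% were called lower and 35.5% higher, 71.4% in all. The members' median log2 fold change (shNEDD9 over shNTC) was -0.74, against 0.0042 over all genes. Of the 10 members outside the clusters, 6 fell, 3 rose (1 with DESeq2) and 1 was not called. The fall was spread unevenly over the families: N-cadherin had the lowest value, the clustered protocadherins lay in a band below 0, and the 3 increases were all CDH genes.

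**Figure D1:**
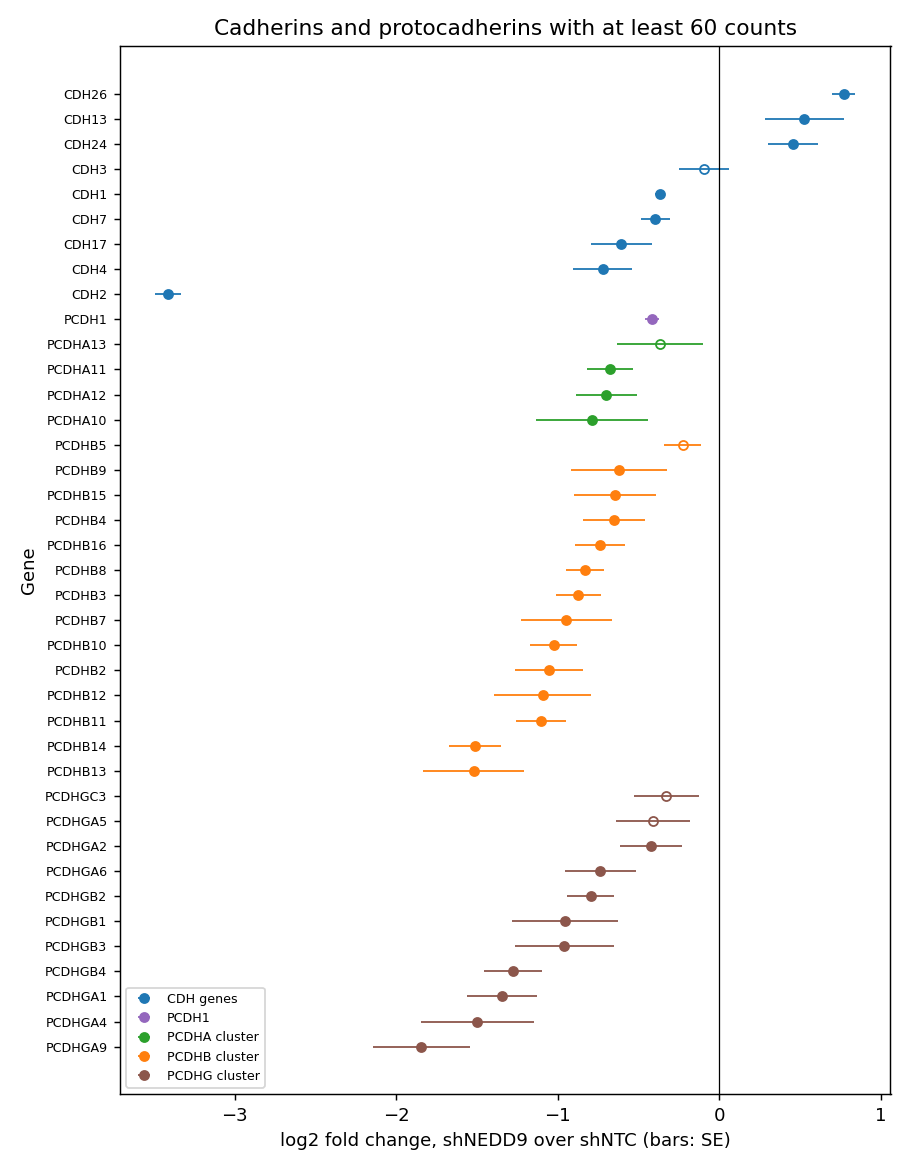
log2 fold change (x axis, shNEDD9 over shNTC) of the 39 members, coloured by family, with bars of 1 SE; filled points were called and open points were not. CDH2 lies at -3.41 and CDH26 at 0.77, and all 29 clustered protocadherins lie below 0.

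N-cadherin was the member with the lowest fold change. CDH2 (GRCh38 chr18:27950966-28177446, minus strand) was at 114.4, 111.9 and 111.3 CPM in the shNTC libraries and at 10.7, 11.2 and 9.98 CPM in the shNEDD9 libraries. The groups lay far apart, and each was narrow. Its log2 fold change was -3.41 ± 0.08 (SE), with an edgeR adjusted p below 1e-300. The nearest tested protein-coding gene, KCTD1, lay 1294 kb away and was higher, with a log2 fold change of 0.30.

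E-cadherin fell by much less. CDH1 (chr16:68737225-68835548, plus strand) was at 469.3, 466.9 and 489.4 CPM in shNTC and 374.6, 374.4 and 359.9 CPM in shNEDD9. Every shNEDD9 library was below every shNTC library, with a log2 fold change of -0.37 ± 0.03 (SE) and an edgeR adjusted p of 7.31e-37. Per kilobase of exon unique to the gene, CDH1 remained the most abundant member, at 81.5 RPKM in shNTC and 63.4 RPKM in shNEDD9. CDH2 stood at 23.4 RPKM in shNTC and at 2.21 RPKM in shNEDD9.

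The ratio of CDH1 to CDH2 per length was 3.39, 3.45 and 3.63 in shNTC and 28.8, 27.6 and 29.8 in shNEDD9. The mean ratio was 8.24-fold higher in shNEDD9, and the groups did not overlap. The two-sided exact permutation p was 0.1, the smallest that 3 against 3 libraries allow. As a share of all CDH counts, CDH2 was 16.1 ± 0.41% (SD, n = 3) in shNTC and 2.13 ± 0.10% (SD, n = 3) in shNEDD9.

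P-cadherin (CDH3), which lies 14.6 kb from CDH1, was not called. It was at 9.68, 9.11 and 10.5 CPM in shNTC and 9.90, 9.92 and 8.27 CPM in shNEDD9, and the groups overlapped. The log2 fold change was -0.10 ± 0.15 (SE), with an edgeR adjusted p of 0.590. R-cadherin (CDH4), a classical cadherin of the nervous system and other tissues, was at 9.01, 11.6 and 7.20 CPM in shNTC and 6.88, 4.58 and 5.04 CPM in shNEDD9. It was lower without overlap, by a log2 fold change of -0.72 ± 0.18 (SE) and with an edgeR adjusted p of 1.32e-04.

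CDH7, a type II cadherin, was at 34.0, 33.6 and 33.8 CPM in shNTC and 24.0, 24.8 and 27.6 CPM in shNEDD9, without overlap. Its log2 fold change was -0.39 ± 0.09 (SE), and the call was lost when the libraries were thinned to the smallest (edgeR adjusted p = 0.119, range over all alternatives 1.76e-05 to 0.119). CDH17, the liver-intestine cadherin, was at 6.45, 7.23 and 10.2 CPM in shNTC and 3.86, 5.21 and 6.15 CPM in shNEDD9. Its log2 fold change of -0.60 ± 0.19 (SE) became -0.35 without the third shNTC library, where it was no longer called (edgeR adjusted p = 0.162, range 3.81e-04 to 0.162).

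CDH26 rose most among the members with at least 60 counts. CDH26 (chr20:59958427-60034011, plus strand), a cadherin known from epithelia in allergic inflammation, was at 35.4, 34.6 and 31.8 CPM in shNTC and 58.1, 56.0 and 59.1 CPM in shNEDD9. All shNEDD9 libraries were above all shNTC libraries, with a log2 fold change of 0.77 ± 0.07 (SE) and an edgeR adjusted p of 1.22e-24. The nearest tested protein-coding genes, FAM217B at 9.75 kb and PPP1R3D at 18.1 kb, were also called higher, with log2 fold changes of 0.30 and 0.27. On the other side, CDH4, 1218 kb away, moved in the other direction, and TAF4, 1919 kb away, was called higher (0.18). Any link of these genes with CDH26 was not tested. CDH26 made up 4.87% of CDH counts in shNTC and 11.5% in shNEDD9.

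The other increases were smaller. CDH24, a type II cadherin, was at 8.34, 9.43 and 6.89 CPM in shNTC and 11.1, 11.6 and 10.5 CPM in shNEDD9, with a log2 fold change of 0.46 ± 0.16 (SE). It was not called by DESeq2 (adjusted p = 0.0563), after thinning (0.254) or without the third shNTC library (0.0834), over a range of 0.00352 to 0.254. CDH13, or T-cadherin, which is held in the membrane by a lipid anchor and has no catenin-binding tail, was at 2.29, 3.77 and 3.91 CPM in shNTC and 5.04, 4.20 and 4.64 CPM in shNEDD9. Its log2 fold change of 0.53 ± 0.24 (SE) was 0.25 without the first shNTC library, where the edgeR adjusted p was 0.437 (0.0205 to 0.437 over the alternatives). Its call was also lost without the first or the third shNEDD9 library (edgeR adjusted p = 0.0895 and 0.0854), with DESeq2 (0.183), after thinning (0.325), without a count filter (0.0727) and with the replicate block (0.0572).

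**Figure D2:**
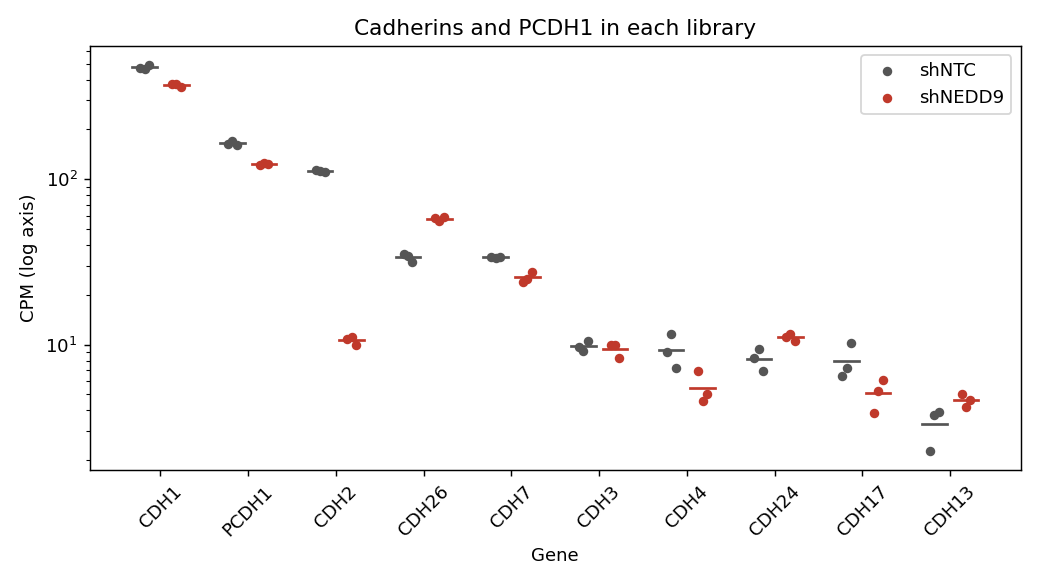
CPM on a log axis (y) of the 9 CDH genes and PCDH1 (x) in each library; points are libraries and short lines are group means. CDH2 drops from a mean of 112.5 to 10.6 CPM, whereas the points of CDH3 overlap.

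PCDH1 (chr5:141853111-141879246, minus strand), a non-clustered protocadherin of airway and other epithelia, was at 164.1, 170.0 and 162.1 CPM in shNTC and 121.5, 125.5 and 123.0 CPM in shNEDD9. The groups did not overlap, and the log2 fold change was -0.41 ± 0.04 (SE) with an edgeR adjusted p of 1.54e-21. PCDH1 came next after CDH1 per length in both groups, at 28.0 RPKM in shNTC and 20.9 RPKM in shNEDD9. In shNTC the next levels after CDH2 were PCDHB8 at 8.60 RPKM, PCDHB5 at 6.63 RPKM and CDH26 at 5.90 RPKM, and the CPM-based ranges of the last pair per length overlapped. In shNEDD9 CDH26, at 10.0 RPKM, came next after PCDH1.

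Sequences near the starts of clustered protocadherins are shown around a CGCT core, and any link of these letters to the fold changes was not tested. Promoters of clustered protocadherins are known for a conserved element with a CGCT core, and the insulator protein CTCF binds at many of them. RefSeq windows (GRCh38.p14, 250 bases before to 50 after the start) were found for 27 of the 29 clustered members. Each sequence below is 44 bases, 5′ to 3′, with the CGCT core in capitals:
PCDHB5 (chr5:141135175-141135218, plus strand): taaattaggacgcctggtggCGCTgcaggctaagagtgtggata
PCDHB10 (chr5:141192295-141192338, plus strand): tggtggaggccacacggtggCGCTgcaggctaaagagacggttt
PCDHB13 (chr5:141213861-141213904, plus strand): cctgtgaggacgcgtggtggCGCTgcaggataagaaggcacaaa
PCDHB15 (chr5:141245310-141245353, plus strand): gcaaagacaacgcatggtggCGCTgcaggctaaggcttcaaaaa
PCDHB3 (chr5:141100389-141100432, plus strand): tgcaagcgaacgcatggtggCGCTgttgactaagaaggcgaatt
PCDHA10 (chr5:140855837-140855880, plus strand): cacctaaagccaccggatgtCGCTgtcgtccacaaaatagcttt
PCDHA12 (chr5:140875240-140875283, plus strand): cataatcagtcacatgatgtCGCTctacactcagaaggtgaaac
PCDHGA4 (chr5:141354956-141354999, plus strand): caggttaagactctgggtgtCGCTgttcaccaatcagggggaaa
PCDHGA9 (chr5:141402710-141402753, plus strand): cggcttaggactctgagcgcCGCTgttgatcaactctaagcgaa
PCDHGC3 (chr5:141475876-141475919, plus strand): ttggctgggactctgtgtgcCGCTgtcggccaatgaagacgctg

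CGCT on the gene's strand was present in 27 of 27 windows of clustered members, and in 54.3% of all 35116 windows (70.01% on either strand). For a window with several matches, the match most like GGTGGCGCTGCAG was taken, the most common 13-base stretch around CGCT in the PCDHB windows, where 10 of 13 hold it in full at the match. The core so chosen lay 30 to 70 bases before the start in 21 windows, and the median distance from the start was 58 bases. Its position varied, up to 199 bases before the start (PCDHGB2), and in 1 window it lay after the start (PCDHB8). GGTGGCGCT, its first 9 letters, which contain CGCT and were chosen after the windows were seen, was present in 13 of 13 PCDHB windows and in 0 of 14 PCDHA and PCDHG windows. On either strand it was present in 0.501% of all windows. PCDHB5 and PCDHB13 share all 13 letters of the longer motif, and their log2 fold changes were -0.22 and -1.52. A match describes letters in a window and shows no binding.

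Of the 29 clustered members, 25 fell, 0 rose and 4 were not called (PCDHA13, PCDHB5, PCDHGA5 and PCDHGC3). With edgeR, 26 had an unadjusted p under 0.05, all of them with lower values. All 29 log2 fold changes were below 0, with a median of -0.83 and a range of -1.84 to -0.22. Among the 4734 tested genes with totals in the same range, 30.8% were called lower, 51.1% had a negative value (49.7% of all genes), and the median was -0.02. Called decreases of at least 2-fold numbered 10 of 29, against 9.22% of all genes and 641 of the 4734 genes in the same range. Increases of that size numbered 0, against 7.67% of all genes and 455 of the 4734. The shNEDD9 libraries lay below all shNTC libraries for 25 of 29 and above them for 0, against 36.1% and 35.7% of all genes. These genes share sequence and may share reads, so they are not independent of each other.

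Summing each cluster removes the division of reads among its genes, but does not restore any reads that were dropped as ambiguous. The PCDHA sum was 35.3, 32.0 and 33.3 CPM in shNTC and 19.5, 22.4 and 20.7 CPM in shNEDD9, 38.2% lower. The PCDHB sum was 142.1, 149.8 and 146.5 CPM in shNTC and 81.6, 79.5 and 82.0 CPM in shNEDD9, 44.2% lower. The PCDHG sum was 78.2, 73.2 and 75.8 CPM in shNTC and 37.4, 46.6 and 41.7 CPM in shNEDD9, 44.7% lower. No cluster's groups overlapped. The log2 fold changes were -0.69 ± 0.09, -0.84 ± 0.05 and -0.85 ± 0.06 (SE), with edgeR adjusted p of 3.08e-13, 2.89e-67 and 1.05e-38.

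**Figure D3:**
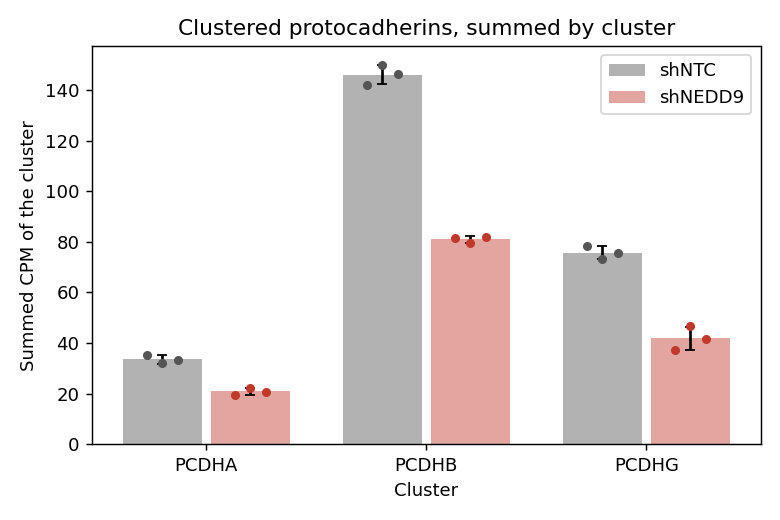
Summed CPM (y) of all PCDHA, PCDHB and PCDHG rows (x) in shNTC and shNEDD9; bars are means, error bars SD (n = 3) and points libraries. The means are 33.6 and 20.9 CPM for PCDHA, 146.1 and 81.1 CPM for PCDHB, and 75.7 and 41.9 CPM for PCDHG.

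PCDHB genes held the most counts of the 3 clusters, and 13 of their 14 reported members fell, against 35.9% of all genes tested. Of these, PCDHB9 was near the threshold (edgeR adjusted p = 0.0492) and lost its call in most alternative settings, among them DESeq2 (adjusted p = 0.152). PCDHB14 was at 13.3, 14.5 and 15.5 CPM in shNTC and 6.04, 4.96 and 4.44 CPM in shNEDD9. The groups lay well apart, and the level was 2.85-fold lower with an edgeR adjusted p of 4.10e-20. PCDHB8 was at 20.6, 24.2 and 20.2 CPM in shNTC and 10.6, 12.5 and 12.2 CPM in shNEDD9, again without overlap. This gave a log2 fold change of -0.83 ± 0.12 (SE) and an edgeR adjusted p of 9.86e-12. PCDHB5, the exception, was at 17.2, 20.4 and 20.2 CPM in shNTC and 15.6, 16.5 and 16.3 CPM in shNEDD9. Its groups did not overlap, but its log2 fold change of -0.22 ± 0.11 (SE) had an edgeR adjusted p of 0.0665, and it was called without the first shNTC library (0.0268) and with the replicate block (0.0444), over a range of 0.0268 to 0.258. Of the 50-base stretches of a PCDHB gene's transcripts, 9.61% (PCDHB7) to 49.3% (PCDHB8) also occur in another gene's, against at most 1.37% for the CDH genes, so single PCDHB values are uncertain.

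In the PCDHG cluster, 5 of 6 reported A-type genes, 4 of 4 B-type genes and 0 of 1 C-type gene fell, against 35.9% of all genes tested. With 1 C-type gene, the types cannot be compared. PCDHGB1, a B-type gene, was called although its groups overlapped, at 1.89 to 3.44 CPM in shNTC and 1.11 to 2.01 CPM in shNEDD9. PCDHGA9 was at 4.44, 4.08 and 5.01 CPM in shNTC and 0.839, 1.53 and 1.31 CPM in shNEDD9, which was 3.59-fold lower (edgeR adjusted p = 1.55e-09). PCDHGB4 was at 10.8, 11.6 and 10.2 CPM in shNTC and 2.85, 5.34 and 4.64 CPM in shNEDD9, with a log2 fold change of -1.27 ± 0.18 (SE). Neither gene's groups overlapped. PCDHGC3 was at 7.13, 5.66 and 5.48 CPM in shNTC and 3.52, 5.60 and 5.34 CPM in shNEDD9. Its groups overlapped, and its log2 fold change of -0.33 ± 0.20 (SE) was not called (edgeR adjusted p = 0.138).

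In the PCDHA cluster, PCDHA10, PCDHA11 and PCDHA12 fell, 3 of the 4 reported genes, against 35.9% of all genes tested. PCDHA10 had 74 counts and a log2 fold change of -0.79 ± 0.35 (SE, edgeR adjusted p = 0.0311). Its call was lost with DESeq2 (adjusted p = 0.114) and in other settings. PCDHA11 was at 15.6, 13.5 and 13.1 CPM in shNTC and 8.56, 9.03 and 9.08 CPM in shNEDD9, with a log2 fold change of -0.68 ± 0.14 (SE). PCDHA12 was at 6.72, 9.43 and 8.92 CPM in shNTC and 4.20, 5.98 and 4.64 CPM in shNEDD9, with a log2 fold change of -0.70 ± 0.19 (SE). The groups of both genes were apart. PCDHA5 held 1 count and PCDHGC4 held 0, although they share constant exons with PCDHA11 (455 counts) and PCDHGB2 (430 counts), so reads of the shared exons were not counted for every gene.

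Shares within a cluster are given for 3 genes, chosen after their values were seen. PCDHB5 made up 13.2 ± 0.91% (SD, n = 3) of PCDHB counts in shNTC and 19.9 ± 0.83% (SD, n = 3) in shNEDD9. PCDHB14 made up 9.87 ± 0.63% and 6.35 ± 1.01% (SD, n = 3). PCDHGA4 made up 4.21 ± 1.26% and 2.31 ± 0.91% (SD, n = 3) of PCDHG counts. The groups overlapped for PCDHGA4 and did not for PCDHB5 and PCDHB14, and an exact permutation test of 3 against 3 libraries cannot go below p = 0.1.

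The tested protein-coding genes next to the clusters moved in both directions or were not called. Of the 5 tested protein-coding genes before the PCDHA cluster, 1 was called higher (HARS2, log2 fold change 0.19) and 4 were not called. Of the 5 after the PCDHG cluster, 3 were not called, among them DIAPH1 at -0.02 ± 0.03 (SE) and HDAC3 at 0.0041 ± 0.06 (SE). The other two were lower, FCHSD1 at -1.19 and ARAP3 at -0.27. The difference between the clusters and their neighbours was not tested.

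**Figure D4:**
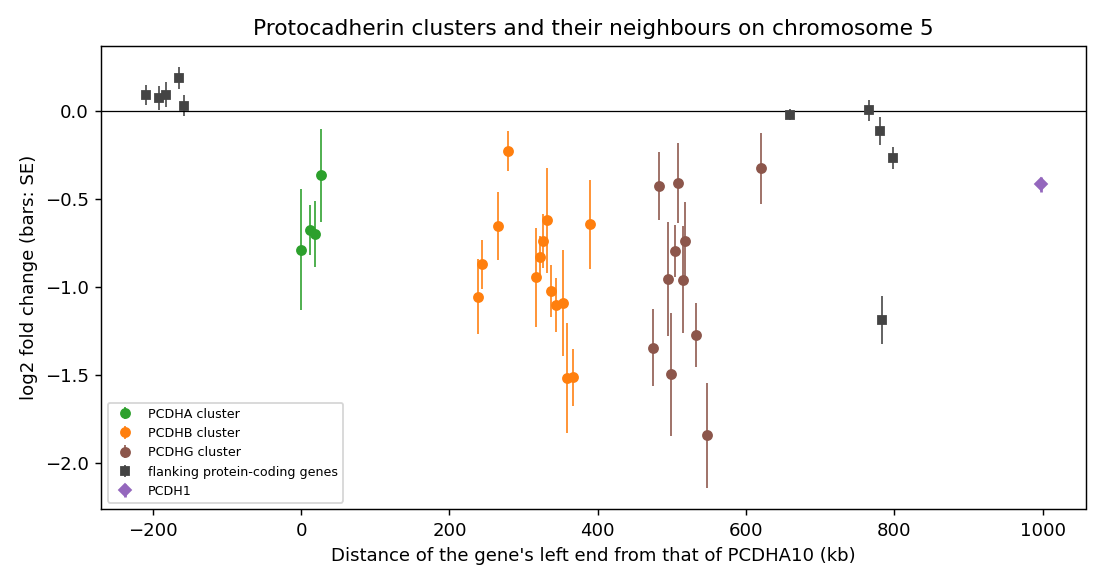
log2 fold change (y, bars of 1 SE) of the clustered members, 5 flanking genes on each side and PCDH1 against distance along chromosome 5 from the left end of PCDHA10 (x, kb). The clustered members lie between -1.84 and -0.22, and 7 of the 10 flanking genes were not called.

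Cadherins work through partners, and the partner list was mostly lower. Of 22 tested catenins and adherens junction partners, 15 fell and 4 rose, against 35.9% lower and 35.5% higher over all genes. The median log2 fold change was -0.65, against 0.0042 over all genes. Plakoglobin (JUP), a catenin of junctions and desmosomes, was 499.3 CPM in shNTC and 207.0 CPM in shNEDD9, a log2 fold change of -1.26. α-catenin (CTNNA1), the link to actin, had -0.92, β-catenin (CTNNB1), which binds the cadherin tail, -0.88, and p120-catenin (CTNND1), which holds cadherins at the membrane, -0.72. Vinculin (VCL), which reinforces the actin link, had -0.62, and the adhesion molecule NECTIN4 -1.13. AJUBA, a LIM protein that binds α-catenin, was 8.37 ± 0.88 CPM (SD, n = 3) in shNTC and 153.2 ± 5.07 CPM (SD, n = 3) in shNEDD9, 18.7-fold higher. All of these were called.

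Of 17 genes for cadherin trafficking, cleavage and turnover, 12 fell and 2 rose (35.9% and 35.5% over all genes), with a median of -0.48. ADAM10, the protease that sheds the outer part of E-cadherin and N-cadherin, was 200.5 ± 15.8 CPM (SD, n = 3) in shNTC and 99.0 ± 3.14 CPM (SD, n = 3) in shNEDD9. Its log2 fold change was -1.04, beside -1.11 for NUMBL, an endocytic adaptor, -0.72 for PIP5K1C, a lipid kinase, and -0.62 for PTPRF, a receptor phosphatase. Among 13 tested genes of the wider cadherin superfamily, 9 fell and 2 rose (35.9% and 35.5% over all genes). FAT1, a giant cadherin, was 586.7 CPM in shNTC and 191.6 CPM in shNEDD9 (-1.61), FAT2 had -1.54 and the calsyntenin CLSTN3 -0.95. DCHS1, the ligand of FAT4, was 0.949 and 2.91 CPM, a log2 fold change of 1.76.

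Of 17 listed transcriptional regulators of E-cadherin and N-cadherin, 10 were tested, 5 fell and 3 rose. Over all genes 35.9% were lower and 35.5% higher, so this count says little about the list. Several repressors of E-cadherin were hardly counted: over all 6 libraries SNAI1 had 25 counts, SNAI2 9, ZEB1 1, ZEB2 4, TWIST1 2 and TWIST2 1, and none of these was tested. TCF3, another repressor of E-cadherin, named here after its values were seen, had 4076 counts and was called higher, at 91.9 CPM in shNTC and 105.8 CPM in shNEDD9 (0.22). KLF4, an epithelial factor that activates CDH1, was 145.7 CPM in shNTC and 36.1 CPM in shNEDD9 (-2.02). The epithelial factors GRHL3 and ELF3 had -1.46 and -1.25, and the corepressor CTBP2 0.65.

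Of 19 regulators and effectors of protocadherins, 12 rose and 6 fell (35.5% and 35.9% over all genes), with a median of 0.16. The cohesin subunits SMC3 and RAD21, which shape chromatin loops, had log2 fold changes of 0.80 and 0.77, and CTCF had 0.30. DNMT3B, a DNA methyltransferase, had 1.13. CYFIP1, a subunit of the actin-regulating WAVE complex, had -0.73, and PTK2, a kinase bound by protocadherin tails, had -0.44. All 6 were called.

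**Figure D5:**
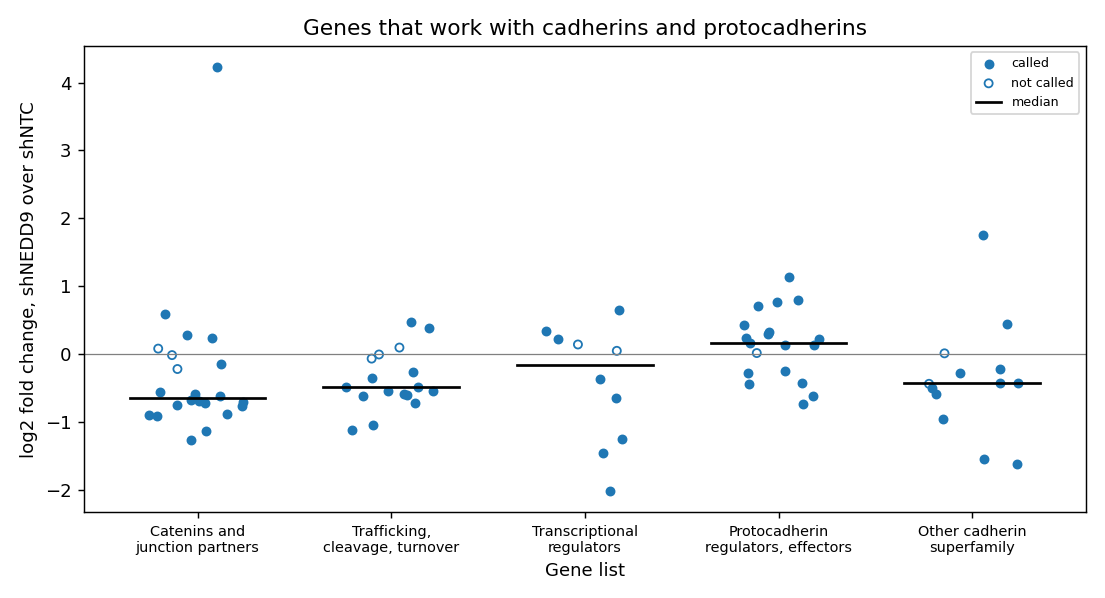
log2 fold change (y, shNEDD9 over shNTC) of the tested genes of 5 lists (x); filled points were called, open points were not, and lines are medians. The median is -0.65 for catenins and junction partners and 0.16 for protocadherin regulators, and AJUBA lies at 4.23.

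Members under 60 counts were 35 genes with 1 to 59 counts and 20 with 0, with the antisense genes and pseudogenes among them. Just inside the threshold were PCDHA10 with 74 counts and PCDHGA4 with 76, and just outside were PCDH8 with 53 and CDH23 with 52. CDH5, the endothelial cadherin, had 0 counts. CDH11, a cadherin of mesenchymal cells, had 5.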

How the data were processed

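RNA of 6 VCaP libraries was sequenced from stranded total RNA kits, per the labels' protocols. The authors deposited raw whole-number counts per gene. Per the submitters' processing notes, the tools were STAR 2.5.3a, Subread 1.6.2 with featureCounts, cutadapt 1.9 and FastQC 0.11.5, and both hg19 and GRCh38 are named, with no role for either. The annotation release and strand setting are not given in the sources used here, so reads of antisense or near-identical genes may be mixed or dropped. All 58735 identifiers occur in GENCODE 29 (GRCh38), which gave coordinates. 1 row without an identifier was left out.

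Groups came from the titles. edgeR 4.0.16 in R 4.3.3 (glmQLFit robust, TMM, filterByExpr with a minimum count of 10) was fitted to all genes, and p-values were Benjamini-Hochberg adjusted over 13958 genes. SE is the unmoderated log2 fold change over the square root of F. CPM used TMM factors, and RPKM divided them by exon length unique to the gene. In data simulated for this comparison (13747 genes), 64% of genes with 60 to 707 counts changed 2-fold were recovered. The simulation gave 156 calls, a far smaller share than in the data. Its adjusted p was therefore stricter, and 64% may understate the recovery in these data. DESeq2 1.42.0 and limma 3.58.1 were alternatives, with other scalings, filters, thinning, a replicate block and each library left out. Replicate libraries differed by little more than counting noise (chi-square per degree of freedom 1.14 to 1.21). The common coefficient of variation beyond counting noise was 1.65%. The p-values measure change against this small spread. Every member is accounted for. From each list the text names up to 4 called genes of at least 1 mean CPM with the largest change, plus direct partners. Members and lists were chosen with earlier results of these data known.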

Additional observations from a re-analysis of the deposited data

How the results depend on the processing

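Under 15 alternative settings, the clustered members called lower numbered 18 to 25 (18 after thinning to the smallest library, 20 with DESeq2, 20 to 23 with 1 library left out), and none was called higher. No clustered value was positive in any of 429 values over the settings. 17 of the 25 clustered calls and 5 of the 9 others (CDH1, CDH2, CDH4, CDH26 and PCDH1) were kept in every setting that tested them. The clustered calls lost in some settings were PCDHA10, PCDHB7, PCDHB9, PCDHB15, PCDHGA2, PCDHGA6, PCDHGB1 and PCDHGB3. Without the third shNTC library alone, PCDHB7, PCDHGA2, PCDHGA6, PCDHGB1 and PCDHGB3 lost theirs (edgeR adjusted p 0.0629, 0.265, 0.0900, 0.0677 and 0.0889). The members that are not clustered and were called higher numbered 3, but 1 with DESeq2 and 1 after thinning. CDH3, not called, ranged over -0.15 to 0.0107 with 1 library left out and turned positive without the third shNEDD9 library. The cause of these changes was not tested, apart from the fewer counts that thinning leaves. The PCDHA, PCDHB and PCDHG sums ranged over -0.74 to -0.65, -0.87 to -0.82 and -0.92 to -0.79 and kept their calls.

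Same-numbered libraries correlated at -0.0242, -0.00213 and 0.0356 in their deviations from the group means. These deviations were mostly counting noise (chi-square per degree of freedom 1.14 to 1.21), so the correlations cannot show whether the numbers pair libraries. With the replicate block, 25 clustered members were called lower and 2 not clustered higher, and of all genes 4881 were higher and 4953 lower. The block changed 3 member calls: CDH13 (adjusted p = 0.0572) and PCDHB9 (0.0581) were lost and PCDHB5 (0.0444) was gained. Depth limits the clustered members, of which 18 were called lower after thinning, against 25. At their counts the simulation recovered 40% of 1.5-fold changes. It called 156 of 13747 genes, whereas 71.4% of all genes tested were called in the data. The adjusted p was therefore stricter in the simulation, and 40% may understate the recovery in these data.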

Other observations

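Of the 35 members with 1 to 59 counts, 3 passed the count filter. PCDHAC1, a C-type gene of the PCDHA cluster, had 49 counts and was 50.1% lower in shNEDD9 (edgeR adjusted p = 0.0246). PCDH8, a non-clustered protocadherin, had 53 counts and 0.35 (edgeR adjusted p = 0.451). Its pseudogene PCDH8P1 had 50 counts and 1.16 ± 0.46 (SE, edgeR adjusted p = 0.0157), and reads of this pair may be mixed. PCDH19, a non-clustered protocadherin with 24 counts, was at 1.34, 0.943 and 0.783 CPM in shNTC and 0.504, 0.254 and 0.101 CPM in shNEDD9 (3, 2 and 1 counts) and was not tested.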
